A study of Mus musculus with 18 samples.

Results

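The 10 genes described here serve the calcium switch and the light chains of the skeletal muscle sarcomere, and were followed in cultured mouse satellite cells labelled Hoxa10 scKO or control. They are the troponin T genes Tnnt1, Tnnt2 and Tnnt3, the troponin I genes Tnni1 and Tnni2, the troponin C genes Tnnc1 and Tnnc2, and the myosin light chain genes Myl1, Mylpf and Myl4. They were taken as the rows of the deposited table whose mouse Ensembl identifiers map to these symbols, which found all 10 among 50689 features. No expression value entered that choice.

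Libraries labelled scKO carry Pax7-CreERT2/+ together with Hoxa10f/f, and control libraries carry Hoxa10f/f alone, both in the C57BL6 strain. Satellite cells of the tibialis anterior were kept on matrigel in growth medium, and 9 libraries of each label were sequenced. The scKO cells received 4-hydroxytamoxifen at 1 µM for 2 days and the labels name no such treatment for the controls, so the effects of Hoxa10 loss, of Cre and of the drug cannot be told apart. CreERT2 is an inducible Cre recombinase, driven here from Pax7, the gene that marks satellite cells, so that deletion rests on the cells that express Pax7. The labels do not say whether the libraries came from separate animals or cultures, so the p-values below measure only the spread between these samples.

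Troponin sits on the thin filament as a complex of 3 subunits. Troponin T binds tropomyosin, troponin I holds actomyosin inhibited, and troponin C binds calcium and releases that inhibition. Troponin T and troponin I are made from separate genes in fast, slow and cardiac muscle, whereas slow and cardiac muscle share the troponin C gene Tnnc1. Developing skeletal muscle also uses the cardiac troponin T gene and the embryonic light chain Myl4. Essential light chains (Myl1, Myl4) and the regulatory light chain (Mylpf) wrap the lever arm of the myosin head. The set of isoforms is one of the usual readouts of how far a myogenic cell has differentiated and of its fibre type.

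In the GRCm38 annotation the genes lie in pairs of a troponin I and a troponin T gene. Tnni1 (ENSMUSG00000026418, chromosome 1, 135779434 to 135810989) and Tnnt2 (ENSMUSG00000026414, chromosome 1, 135836354 to 135852260) are both on the plus strand with 25.4 kb between them. Tnni2 (ENSMUSG00000031097, chromosome 7, 142441808 to 142444410) and Tnnt3 (ENSMUSG00000061723, chromosome 7, 142498836 to 142516009) are on the plus strand with 54.4 kb between them. Tnnt1 (ENSMUSG00000064179, chromosome 7, 4504570 to 4516382, minus strand) lies 1.92 kb from Tnni3, the cardiac troponin I gene. Tnnc1 (ENSMUSG00000091898, chromosome 14, 31208312 to 31211729, plus strand), Mylpf (ENSMUSG00000030672, chromosome 7, 127208890 to 127214298, plus strand) and Myl4 (ENSMUSG00000061086, chromosome 11, 104550663 to 104595753, plus strand) stand alone. Myl1 (ENSMUSG00000061816, chromosome 1, 66924295 to 66945404) is on the minus strand. Tnnc2 (ENSMUSG00000017300, chromosome 2, 164777161 to 164779967, minus strand) shares 592 exon bases with Ube2c, a mitotic ubiquitin-conjugating enzyme gene on the plus strand, and whether counting used the strand is not given in the sources used here. Reads of Tnnc2 and Ube2c therefore cannot be told apart with certainty.

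The values are counts of unique molecular identifiers (UMIs), the short random tags that mark single RNA molecules, and library totals ran from 420197 to 5986128. The 18 libraries fell into 5 deep ones with over 2000000 counts (scKO 6, 7 and 9 and control 1 and 2, the smallest with 4346150) and 13 shallow ones (scKO 1 to 5 and 8, control 3 to 9, the largest with 968559). No count exceeded 4 to the power 6, the number of different tags of 6 bases, and 8 genes of the table reached that ceiling. In a deep library 637 genes went over 50% of the ceiling, against 55 genes in a shallow library. Targeting was read from Hoxa10 itself. In scKO libraries it had a lowest of 1.63, a median of 3.01 and a highest of 4.38 CPM (UMI counts scaled to the same total in every library), against 13.4, 24.0 and 53.7 CPM in control libraries, all shallow, without overlap. Its log2 fold change was -3.22 (SE 0.43; edgeR quasi-likelihood test, Benjamini-Hochberg adjusted p = 0.00115), a fold of 0.108. In the deep libraries Hoxa10 had 13.5, 9.59 and 9.06 CPM (75, 56 and 48 counts) in scKO 6, 7 and 9. It had 48.1 and 54.8 CPM in control 1 and 2. The deep scKO values were above the highest shallow scKO value of 4.38 CPM. Both deep controls were above the shallow control median of 24.0 CPM. The deep groups did not overlap either, with a fold of 0.206, or -2.28 on the log2 scale (SE 0.17, adjusted p = 3.2e-05 by edgeR).

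Most of the 10 genes stood close to the ceiling in the deep libraries. Tnnt2, the cardiac troponin T, was at the ceiling in scKO 6 and 9 and had 4095 counts in scKO 7, which is 1 count short of it, against 4092 and 4094 counts in control 1 and 2. Mylpf, the fast regulatory light chain, had 4092, 4093 and 4092 counts in those scKO libraries, against 3988 and 4061 counts in those controls. The fast troponin I gene Tnni2 was the farthest from the ceiling, with 2074, 2051 and 1901 counts in scKO libraries, against 983 and 1372 counts in control libraries. No member stayed under 50% of the ceiling in every deep library. In the shallow libraries 3 members did, Tnnt1 with 253 to 887 counts, Tnni2 with 161 to 611 and Tnnc2 with 442 to 979. Tnnt2 had 80.0 to 100% of the ceiling even there, and Myl1 57.7 to 91.5%, so that a difference between libraries is compressed for both.

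**Figure D1:**
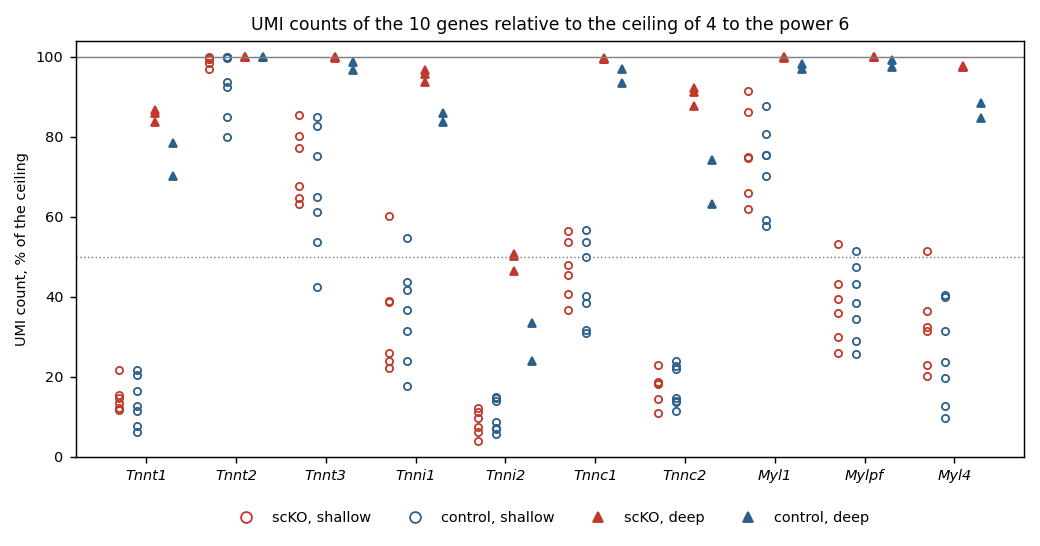
UMI count of each gene in each library, as a percentage of the ceiling (y axis), for the 10 genes (x axis); red marks scKO and blue control, open circles the 13 shallow and triangles the 5 deep libraries, the solid line the ceiling and the dotted line 50% of it. In the deep libraries all members but Tnni2 stand at 63.2% or more of the ceiling, whereas in the shallow ones Tnnt1, Tnni2 and Tnnc2 stay at 23.9% or less.

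For this reason the groups were compared in the shallow libraries (6 scKO and 7 control) on the counts as deposited. A fit of all 18 libraries with the depth class as a covariate was run beside it, and its values for members are affected by the ceiling. Counts corrected for tags drawn more than once were computed as an alternative. The formula was the negative of the ceiling times the natural log of 1 minus the count over the ceiling. Counts at the ceiling were first set to 4095.5, since the formula has no finite value there. The corrected Tnnt2 count of scKO 3, 6 and 9, which was 36909 in each, was set by that choice. That correction takes all tags as equally likely, which was not tested.

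Of the shallow libraries, 4 stood apart from the other 9 on the first principal component of all tested genes, which held 39.5% of the variance. They were scKO 1, control 7, control 8 and control 9, with scores of 30.5 to 35.3 against -19.7 to -7.25 in the other 9. They hold 1 of 6 scKO and 3 of 7 control libraries, so the fits were repeated without them.

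The transcripts were abundant in both groups. By mean CPM over the shallow libraries Tnnt2 ranked 3 among all features, Myl1 ranked 10, Tnnt3 ranked 12, Tnnc1 ranked 34, Mylpf ranked 40 and Tnni1 ranked 45, and the lowest member, Tnni2, ranked 304. To compare genes with each other, CPM were divided by the length in kb of the longest principal transcript. Whether UMI counts rise with transcript length in these libraries was not tested. Without that division Tnnt2 had the highest mean, with 5722 CPM in scKO and 5799 CPM in control libraries, against 4318 and 4637 CPM for Myl1. With it, Myl1, the fast essential light chain, had the highest mean level on deposited counts. Its level was 5378 ± 635 CPM per kb in scKO and 5775 ± 2018 CPM per kb in control libraries (SD, n = 6 and 7). Tnnt2 followed with 4768 ± 771 and 4832 ± 993 CPM per kb, and Tnnt3, the fast troponin T, with 4169 ± 721 and 3964 ± 245 CPM per kb (scKO and control). The level of Tnnc1, the troponin C of slow and cardiac muscle, was 3685 ± 432 CPM per kb in scKO and 3665 ± 798 CPM per kb in control libraries. Mylpf came next with 2798 ± 590 CPM per kb in scKO and 3165 ± 1044 CPM per kb in control libraries.

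The lower members were Myl4, Tnni1, Tnnc2, Tnnt1 and Tnni2. Their mean levels in scKO libraries were 1932, 1710, 1391, 808 and 612 CPM per kb in that order. In control libraries the same genes had 1513, 1954, 1509.7, 765 and 809 CPM per kb, so that Tnni1 stood above Myl4 and Tnni2 above Tnnt1 there. Within scKO libraries the ranges of all neighbours in this order overlapped except those of Tnnc2 and Tnnt1. Within control libraries these 2 genes did not overlap either, with 991 to 2087 CPM per kb for Tnnc2 and 586 to 988 for Tnnt1. Neighbours in the order of the control means all overlapped. Without the division by length Tnnt1 stood above Tnni2 in control libraries, with means of 785 and 621 CPM. For troponin T the order was cardiac, then fast, then slow; for troponin I and troponin C the slow gene stood above the fast one. The ceiling pulls the upper members down, so the distance between upper and lower members is a lower limit. The top rank also rests on it: on corrected counts, described above, Tnnt2 stood above Myl1, with 21408 corrected CPM per kb in scKO and 15477 in control libraries for Tnnt2, and 8829 in scKO and 9210 in control libraries for Myl1.

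No member passed the threshold of 0.05 in the 13 shallow libraries, where 3 of 6906 tested genes did (0.0434%). At an unadjusted p under 0.05 by edgeR the count of members was also 0, beside 425 of 6906 genes. DESeq2 and limma-voom called 0 members as well, where 6 and 3 genes were called. The log2 fold changes of scKO over control were positive for 3 of 10 members, with a median of -0.10, beside 45.8% positive and a median of -0.02 over all genes tested. Without the 4 libraries that stood apart 8 of 10 were positive, with a median of 0.20, beside 47.7% positive over all genes. Again 0 members were called, where 0 of 7077 genes were. Myl1 alone had an unadjusted p under 0.05 there by edgeR, beside 606 of all genes. In the 13 shallow libraries every member overlapped between the groups. Over all tested genes 0.13% lay higher in scKO without overlap. Bulk counts cannot tell fewer cells of a differentiated type from less RNA per cell.

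**Figure D2:**
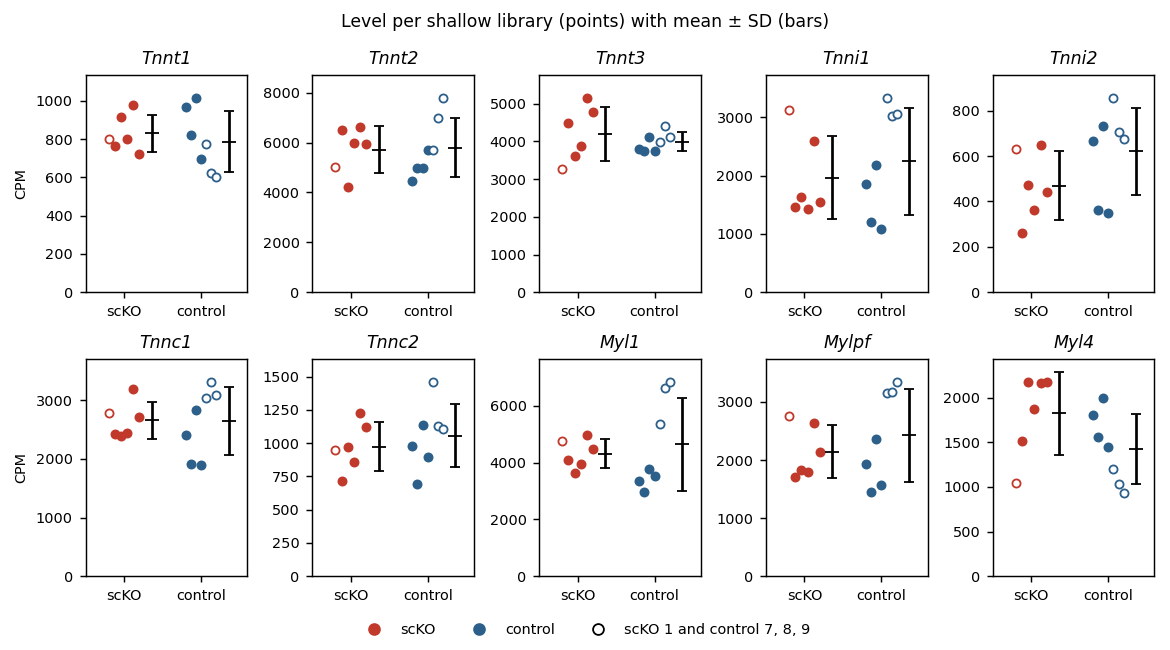
Level of each gene in CPM (y axis, from 0) in the 6 scKO and 7 control shallow libraries (points), with mean ± SD (bars); open points mark the 4 libraries that stood apart. The groups overlap for each of the 10 genes, and in the control group the 3 open points lie above the 4 filled ones for Tnni1 and Mylpf and below them for Myl4.

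Among the troponin T genes, Tnnt1, the slow skeletal isoform, had a lowest of 724, a median of 799.7 and a highest of 977 CPM in scKO libraries, against 602, 774 and 1015 CPM in control libraries. The scKO range lay inside that of the controls, and the log2 fold change was 0.07 (SE 0.14, adjusted p = 0.935 by edgeR), and -0.03 without the 4 libraries. Tnnt2 had 4229, 5957 and 6639 CPM (lowest, median, highest) in scKO libraries, against 4459, 5684 and 7794 CPM in control libraries, with a log2 fold change of -0.05 (SE 0.17, adjusted p = 0.958 by edgeR), and 0.26 without the 4 libraries. The groups covered nearly the same range, on a scale that the ceiling compresses most for this gene. On collision-corrected counts Tnnt2 turned to a log2 fold change of 0.48 (SE 0.21, adjusted p = 0.805 by edgeR). Tnnt3 had 3278, 4174 and 5155 CPM in scKO libraries, against 3752, 3973 and 4414 CPM in control libraries, and a log2 fold change of 0.05 (SE 0.13, adjusted p = 0.952 by edgeR). Without the 4 libraries it was 0.22 (SE 0.12, adjusted p = 0.623 by edgeR). Its spread was wider among scKO libraries (SD 726 CPM) than among controls (SD 247 CPM), which was not tested.

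Among the troponin I genes, Tnni1, the slow isoform, had a lowest of 1433, a median of 1587 and a highest of 3132 CPM in scKO libraries, against 1082, 2179 and 3333 CPM in control libraries. The highest values of both groups belonged to libraries of the 4 that stood apart, and the fold change was -0.23 on the log2 scale (SE 0.32, adjusted p = 0.907 by edgeR), and 0.17 without those 4. Tnni2, the fast isoform, had 259.8, 459 and 648 CPM in scKO libraries, against 349.7, 676 and 856 CPM in control libraries. The scKO median was the lower one, and the groups overlapped across most of their range. The log2 fold change of -0.43 (SE 0.26; 95% interval -0.96 to 0.11) was the lowest of the 10 members and did not pass (edgeR adjusted p = 0.822). Without the 4 libraries it was -0.24 (SE 0.30).

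Of the troponin C genes, Tnnc1 had 2385, 2578 and 3194 CPM (lowest, median, highest) in scKO libraries, against 1902, 2829 and 3312 CPM in control libraries. The groups overlapped and their means differed by less than either SD, with a fold change of -0.02 on the log2 scale (SE 0.17, adjusted p = 0.985 by edgeR), and 0.25 without the 4 libraries. Tnnc2, the fast skeletal troponin C, had 713, 960.3 and 1229.8 CPM in scKO libraries, against 694, 1104 and 1461 CPM in control libraries, and a log2 change of -0.15 (SE 0.18, adjusted p = 0.890 by edgeR), and 0.11 without the 4 libraries. The highest Tnnc2 value was that of control 7. The overlapping gene Ube2c had a log2 fold change of -0.55 (SE 0.24, adjusted p = 0.800 by edgeR) in the same libraries, and its part in the Tnnc2 counts was not tested.

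Among the light chains, Myl1 had a lowest of 3647, a median of 4285 and a highest of 4984 CPM in scKO libraries, against 2951, 3764 and 6839.6 CPM in control libraries. The scKO range lay inside the control range, whose 3 highest values were those of control 7, 8 and 9. The log2 fold change was -0.15 (SE 0.22, adjusted p = 0.910 by edgeR), and 0.35 (SE 0.12, adjusted p = 0.423 by edgeR) without the 4 libraries. Mylpf had 1711, 1982 and 2758 CPM in scKO libraries, against 1446, 2364 and 3344 CPM in control libraries, with a log2 fold change of -0.22 (SE 0.23, adjusted p = 0.878 by edgeR). Without the 4 libraries this was 0.18. Myl4, the embryonic and atrial essential light chain, had 1044.5, 2016 and 2176 CPM in scKO libraries, against 935, 1447 and 1993 CPM in control libraries. The scKO median was the higher one, and the groups overlapped. Its log2 fold change of 0.35 (SE 0.18; 95% interval -0.03 to 0.72) was the highest of the members and did not pass (edgeR adjusted p = 0.822). Without the 4 libraries it was 0.25 (SE 0.13).

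In the fit of all 18 libraries with the depth class, 52 of 7662 genes were called (0.679%) and again 0 of the 10 members. No member had an unadjusted p under 0.05 there by edgeR, beside 910 of 7662 genes. The log2 fold changes of the members ran from -0.18 for Mylpf to 0.26 for Myl4, with a median of -0.05.

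Isoform balance was compared as the log2 ratio of 2 counts within a library, which needs no scaling between libraries. Where a gene is near the ceiling, the deposited ratio still depends on library depth. For Tnnt3 over Tnnt1 it was 1.97 in control 3 (917166 counts) and 2.77 in control 9 (420197 counts). On corrected counts these were 2.96 and 3.11. For troponin I, the log2 ratio of fast Tnni2 to slow Tnni1 had a lowest of -2.49, a median of -1.99 and a highest of -1.78 in scKO libraries, against -2.17, -1.72 and -1.48 in control libraries. The slow gene had the higher count in every shallow library, and the groups overlapped. The difference of means was -0.26 log2 units (exact two-sided permutation test, p = 0.124, adjusted over the 5 balances p = 0.519). Among the 9 libraries left after setting aside the 4, the ratio was -2.49 to -1.78 in 5 scKO libraries and -1.72 to -1.48 in 4 control libraries. There the ranges did not overlap, with a difference of -0.41 (exact two-sided permutation test, p = 0.0238, adjusted p = 0.119). That contrast did not extend to the deep libraries, where the ratio was -0.93, -0.93 and -1.01 in scKO, against -1.80 and -1.36 in control libraries. The ceiling raises this ratio in deep libraries, because it holds Tnni1 down more than Tnni2; on corrected counts it was -2.25, -2.18 and -2.14 in scKO, against -2.73 and -2.27 in control libraries.

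The other 4 balances did not pass either. The log2 ratio of fast Tnnt3 to slow Tnnt1 averaged 2.33 ± 0.29 in scKO and 2.37 ± 0.34 in control libraries (SD, n = 6 and 7; exact permutation p = 0.814, adjusted p = 0.814). Cardiac Tnnt2 over fast Tnnt3 averaged 0.45 ± 0.17 in scKO and 0.52 ± 0.24 in control libraries (exact permutation p = 0.569, adjusted p = 0.712). For both troponin T balances the means differed by less than either SD on deposited counts. On corrected counts Tnnt2 over Tnnt3 turned, averaging 1.99 ± 0.34 in scKO and 1.64 ± 0.34 in control libraries, a difference of 0.35 that exceeded either SD and did not pass (exact permutation p = 0.0921, adjusted p = 0.292). Fast Tnnc2 over slow and cardiac Tnnc1 averaged -1.46 ± 0.18 in scKO and -1.32 ± 0.19 in control libraries (exact permutation p = 0.207, adjusted p = 0.519), a difference of -0.14, and -0.15 without the 4 libraries. Embryonic Myl4 over fast Myl1 averaged -1.28 ± 0.50 in scKO and -1.67 ± 0.87 in control libraries (exact permutation p = 0.362, adjusted p = 0.603). The lowest 4 of these ratios belonged to the 4 libraries that stood apart, and without them the difference between the groups was -0.10, against 0.39 with them. The smallest p these 1716 splits allow is 0.000583.

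**Figure D3:**
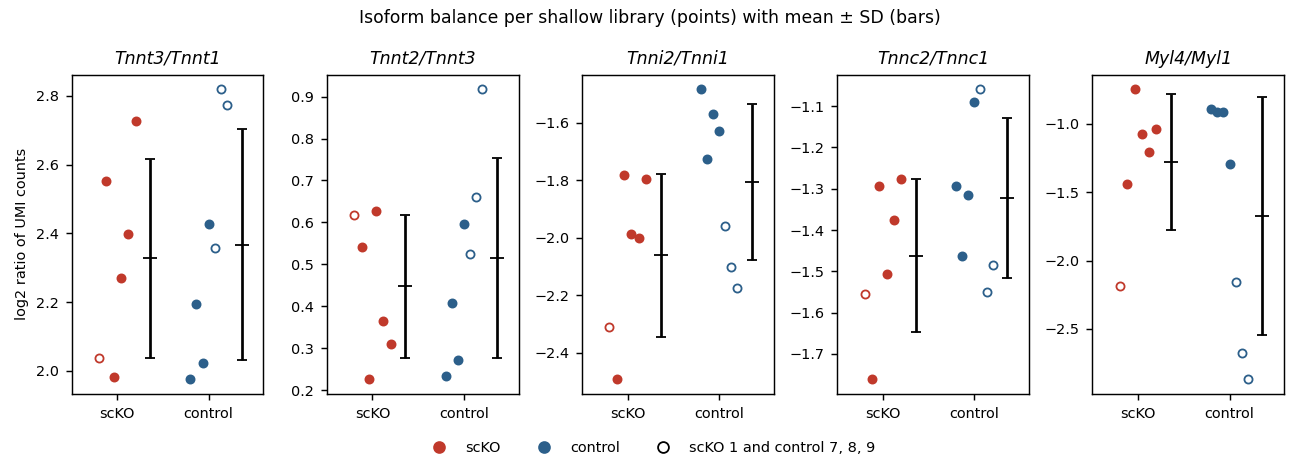
Log2 ratio of UMI counts of 2 isoforms (y axis) in the 6 scKO and 7 control shallow libraries (points) with mean ± SD (bars), 1 panel per balance; open points mark the 4 libraries that stood apart. All 5 balances overlap between the groups, and for Myl4 over Myl1 the 4 open points (-2.87 to -2.16) lie below all filled points.

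The 4 libraries differed from the other 9 without overlap in 3 members, a slow troponin I, a fast light chain and the embryonic light chain. Tnni1 had 3023 to 3333 CPM in the 4 and 1082 to 2598 CPM in the 9, and Mylpf had 2758 to 3344 CPM in the 4 and 1446 to 2629 CPM in the 9. Myl4 went the other way, with 935 to 1199.6 CPM in the 4 and 1447 to 2176 CPM in the 9. For these 3 genes the ranges did not overlap, and for the other 7 they did on deposited counts. On corrected counts Myl1 separated as well, with 10234 to 11683 corrected CPM in the 4 and 3674 to 7494 in the 9. The 4 libraries were set apart with the same genes among those used, so this is a description with no test. The share of all tested genes that separated in this way is not given here. Whether the separation is particular to these isoforms was not tested. Their totals were 787934 in scKO 1 and 670213, 498216 and 420197 in control 7, 8 and 9, within or below the range of the other shallow libraries. The summed satellite cell and myoblast markers (Pax7, Myf5, Myod1, Myog, Cdh15, Des) overlapped, with 5157 to 5928 CPM in the 4 and 4453 to 5823 CPM in the 9. What set the 4 libraries apart was not tested.

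**Figure D4:**
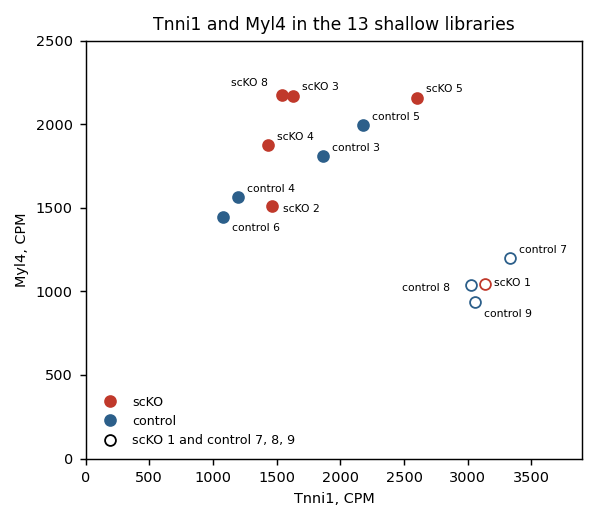
Level of Myl4 (y axis) against that of Tnni1 (x axis), both in CPM, in the 13 shallow libraries, each point named by its library; open points mark the 4 libraries that stood apart. Those 4 lie at 3023 CPM or more of Tnni1 and 1199.6 CPM or less of Myl4, while in the other 9 both genes range together from low to high.

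The promoters of Tnni1, Mylpf and Myl4 are shown because their levels separated the 4 libraries on deposited counts. That of Myl1, which separated on corrected counts only, is not printed. Each line gives the 250 bases before a RefSeq transcript start (GRCm38.p6, plus strand, 5′ to 3′), with the E-box CAGCTG, a sequence of the kind that myogenic regulators such as MyoD bind, in capitals where it occurs. Tnni1 has 2 listed starts, of which the upstream one is printed (chr1:135799171-135799420). The window of Mylpf is chr7:127211358-127211607 and that of Myl4 is chr11:104550413-104550662.
Tnni1: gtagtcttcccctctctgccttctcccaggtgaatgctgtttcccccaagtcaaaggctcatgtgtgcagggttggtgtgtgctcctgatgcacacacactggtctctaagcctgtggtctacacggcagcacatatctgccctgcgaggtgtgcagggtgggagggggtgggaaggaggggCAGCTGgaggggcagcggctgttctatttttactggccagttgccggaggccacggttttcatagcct
Mylpf: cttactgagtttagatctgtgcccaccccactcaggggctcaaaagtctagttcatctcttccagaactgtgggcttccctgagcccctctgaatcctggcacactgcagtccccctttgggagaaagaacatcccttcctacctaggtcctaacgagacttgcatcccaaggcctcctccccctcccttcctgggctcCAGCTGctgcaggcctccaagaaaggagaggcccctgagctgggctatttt
Myl4: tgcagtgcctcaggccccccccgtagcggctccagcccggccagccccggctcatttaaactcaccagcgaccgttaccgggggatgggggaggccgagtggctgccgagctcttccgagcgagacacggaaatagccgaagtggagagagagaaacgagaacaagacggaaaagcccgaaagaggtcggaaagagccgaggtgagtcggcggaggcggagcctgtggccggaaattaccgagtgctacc
CAGCTG begins 68 bases before the start in Tnni1 and 51 bases before it in Mylpf, and does not occur in the Myl4 window. It was searched on both strands, on which it reads the same, and occurs in 4271 of 32851 windows of this length. RefSeq windows were matched for 8 of the 10 members (10 windows), and CAGCTG also occurs in those of Myl1 and Tnnt2. CATTCC, the core of the MCAT element, occurs in a window of Myl1, of Tnnt2 and of Tnnc1, and in 12.6% of all windows, either strand counted. The matches describe these letters only.

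Within the 9 other shallow libraries most pairs of members were positively correlated. The Pearson correlation of log2 CPM was 0.96 between Tnnc1 and Mylpf and 0.93 between Tnni1 and Mylpf (n = 9 libraries, 5 scKO and 4 control), and it was 0.75 between Tnni1 and Myl4, although in the 4 libraries Tnni1 was high and Myl4 low. The correlations of Tnnt2 ran from -0.25 to Tnni2 and -0.21 to Tnnt1 up to 0.76 to Myl1 and 0.80 to Tnnt3. In these 9 libraries Tnnt2 stood at 98.5 to 100% of the ceiling in scKO and 92.5 to 99.9% in control libraries. With its count nearly fixed, its CPM depends mostly on the library total. It was 4229 CPM in scKO 3 (968559 counts in total) and 6639 CPM in scKO 5 (613915 counts). How far the library total enters the correlations of Tnnt2 was not tested. Tnnt1 and Tnni2 correlated with Tnnt3 and Myl1 at 0.20 to 0.23 and with each other at 0.84. These libraries share a depth class but differ in total, from 613915 to 968559 counts, and the values are a description. Across all 13 shallow libraries, the 5 genes of 3514 compared whose log2 CPM most resembled the mean of the members were Lmo7, Myh3, Tpm2, Speg and Pfkm. Their Pearson correlations were 0.92, 0.91, 0.90, 0.89 and 0.89 in that order (n = 13), and 0.91, 0.96, 0.96, 0.96 and 0.92 in the 9 libraries alone. Myh3 is the embryonic myosin heavy chain, Tpm2 is beta tropomyosin, Speg is a striated muscle kinase and Pfkm is the muscle phosphofructokinase. None of the 5 was called in the shallow libraries, with edgeR adjusted p of 0.837 or more.

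The deep libraries gave another picture, which depended on how the ceiling was treated. On deposited counts Tnni2 was called higher in scKO among the 10 members, with 373, 351 and 359 CPM in scKO 6, 7 and 9, against 226 and 229 CPM in control 1 and 2. The groups did not overlap. The log2 fold change was 0.65 (SE 0.10, adjusted p = 0.00102 by edgeR), a fold of 1.57, where 7.31% of 13136 genes were called higher. Tnni2 is the member least touched by the ceiling. Its direction is opposite to that in the shallow libraries, and a test of the difference between depth classes gave 1.08 log2 units (SE 0.45; edgeR unadjusted p = 0.0248, adjusted p = 0.729). That test called 0 of 7662 genes, with 473 at an unadjusted p under 0.05.

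Tnnc2 also lay higher in scKO without overlap in the deep libraries, with 673, 646 and 679 CPM in scKO, against 596 and 508 CPM in control libraries. Of all genes tested there, 23.7% lay higher in scKO without overlap. Its log2 fold change of 0.25 (SE 0.13) was not called (edgeR adjusted p = 0.218), and the gene that shares its exons, Ube2c, went the other way in these libraries (log2 fold change -0.61, SE 0.09, adjusted p = 0.000974 by edgeR). For the other 8 members the deposited CPM overlapped between the groups. Of these, Tnnt2 had 738, 701 and 774 CPM in scKO, against 942 and 684 CPM in control libraries. The deep controls differed from each other in total, with 4346150 and 5986128 counts. Without control 1, which left 1 control library, all 10 members had positive log2 fold changes, with a median of 0.22. Without control 2, which also left 1, 2 of 10 were positive, with a median of -0.29. Tnnt2, Tnnt3, Tnnc1, Myl1 and Mylpf then had log2 fold changes of -0.43, -0.38, -0.34, -0.38 and -0.39. Their deposited counts were nonetheless higher in each deep scKO library than in control 1, which had the smallest total. Tnni2 stayed higher without any 1 of the 5 libraries, with log2 fold changes of 0.60 to 0.68.

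After correction for tags drawn more than once, 9 of 10 members were called higher in scKO in the deep libraries, where 8.12% of genes were. The corrected levels of those 9 did not overlap between the groups, beside 20.9% of all genes that lay higher in scKO without overlap. Tnni2 and Tnnc2 had the largest log2 fold changes, 0.86 each (SE 0.09 and 0.10; edgeR adjusted p = 0.000274 and 0.000406). Tnnc2 had 1222, 1227 and 1117 corrected CPM in scKO, against 687 and 646 corrected CPM in control libraries. The light chains Myl4, Myl1 and Mylpf followed with 0.72, 0.70 and 0.60 (edgeR adjusted p = 0.00388, 0.0105 and 0.00527). Tnnc1 had 0.64, Tnnt3 had 0.59, Tnni1 had 0.53 and Tnnt1 had 0.35 (edgeR adjusted p = 0.00318, 0.0111, 0.0291 and 0.0425). Tnnt2, which sits at the ceiling itself, had 0.10 (SE 0.15, adjusted p = 0.697 by edgeR) and cannot be resolved.

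The corrected values rest on few unused tags, since a gene at 4092 counts leaves only 4 tags unseen, and on the assumption of equal tag use. Leaving out 1 scKO library brought the members called higher to 7 without scKO 6 or scKO 7 and to 6 without scKO 9. Over all genes, 905 of 12982, 575 of 12920 and 794 of 12974 were called higher there, without scKO 6, 7 and 9 in that order. Tnni2, Tnnc2, Tnnc1, Mylpf and Myl4 were called in each of these fits. Without control 1 or control 2, which leaves 1 control library, the median log2 fold change of the members was 0.78 or 0.50. The correction did not bring the depth classes to one level for every member. Corrected Tnnt3 was 2858 to 3685 CPM in scKO and 2073 to 2317 CPM in control deep libraries. In shallow libraries it was 4251 to 8153 CPM in scKO and 4654 to 7139 CPM in control. Corrected Tnni2 was 188 to 195 CPM in deep and 308 to 778 CPM in shallow control libraries. In scKO its deep range, 332 to 355 CPM, lay inside the shallow one, 228 to 557 CPM. In the corrected test of the difference between depth classes no member passed, with the lowest edgeR adjusted p, 0.484, for Tnnc2 (0 of 7666 genes called, 537 at an unadjusted p under 0.05). In the shallow libraries corrected counts called 0 members, with 5 of 10 positive and a median log2 fold change of -0.02, where 3 of 6920 genes were called (0.0434%).

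**Figure D5:**
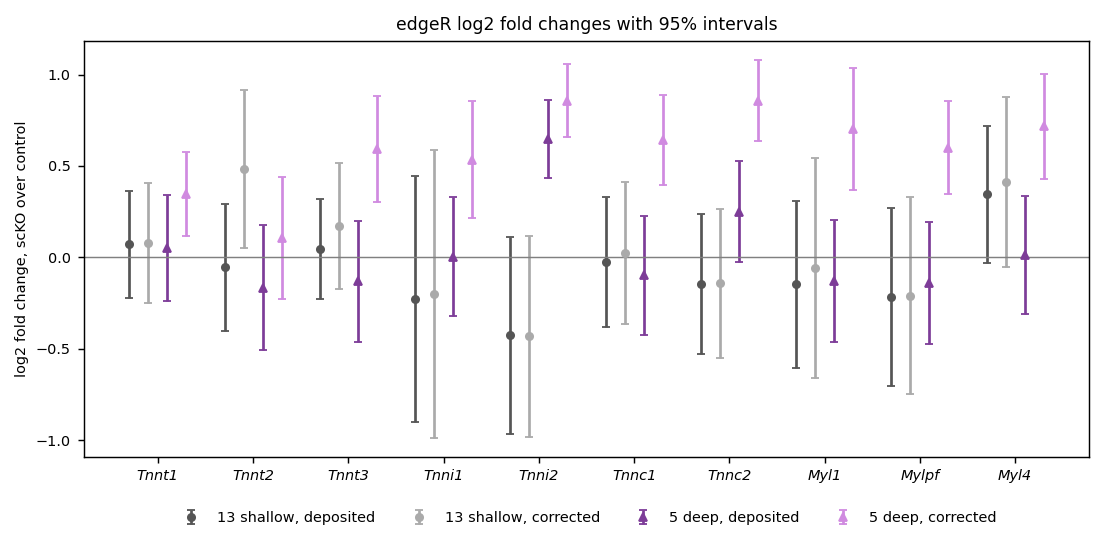
Log2 fold change of scKO over control from edgeR with its 95% interval (y axis) for each gene (x axis), in the 13 shallow libraries (circles; dark grey deposited, light grey corrected counts) and the 5 deep libraries (triangles; dark purple deposited, light purple corrected counts). Of the deep intervals on deposited counts that of Tnni2 (0.44 to 0.86) lies above 0 and the other 9 include 0; on corrected counts that of Tnnt2 alone includes 0.

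Setting aside the 4 libraries from the fit of all 18, 0 members were called on deposited counts (10 of 10 positive, median 0.11), where 3.2% of genes were called higher. On corrected counts that fit called Myl1 (log2 fold change 0.55, SE 0.13, adjusted p = 0.00832 by edgeR) and Myl4 (0.43, SE 0.13, adjusted p = 0.0460 by edgeR) higher in scKO, where 3.9% of genes were called higher.

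Of 19 other thin and thick filament genes, 16 were tested in the shallow libraries and 0 were called (6 positive, and 12 without the 4 libraries that stood apart), and the most abundant, Actc1 (cardiac actin), Tpm1 (alpha tropomyosin) and Myh3, had log2 fold changes of -0.11, -0.01 and -0.25. In the fit of all 18 libraries Myh4, the fast IIb myosin heavy chain, was called higher (log2 fold change 1.34; edgeR adjusted p = 0.00112), where 0.326% of genes were. It had 163 ± 58.9 CPM in scKO and 75.5 ± 22.7 CPM in control shallow libraries (SD, n = 6 and 7), where it did not pass (log2 fold change 1.08; edgeR adjusted p = 0.163). In the deep libraries 7 of 18 tested were called higher and 0 lower, where 7.31% of all genes were called higher: Myh4 (1.91), the perinatal heavy chain Myh8 (0.89), the myosin binding proteins Mybpc1 (1.04) and Mybph (0.63), the leiomodins Lmod2 (1.03) and Lmod3 (0.60), which seed thin filaments, and the capping protein Tmod1 (0.97; log2 fold changes). The highest of these counts, 2439 for Mybpc1, is further from the ceiling than those of most members. On corrected counts 12 of 18 were called higher and 1 lower, where 8.12% of all genes were called higher. The test of the difference between depth classes called 0 of 16 of these genes, with the lowest edgeR adjusted p, 0.388, on deposited counts and 0.336 on corrected counts.

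A further list of 15 genes held other light chains, Tnni3, the kinase genes Mylk, Mylk2, Mylk3 and Mylk4 and the ubiquitin ligase gene Mylip. Of these, 5 were tested in the shallow libraries and 0 were called; the most abundant, Myl6b, Mylk4 and Myl12a, had log2 fold changes of -0.16, 0.09 and -0.04. In the deep libraries 3 of 11 tested were called higher and 0 lower, where 7.31% of all genes were called higher. They were 1 light chain and 2 kinases, the non-muscle regulatory chain Myl12b (0.67), the kinase Mylk (1.20) and its relative Mylk4 (0.74; log2 fold changes, edgeR adjusted p = 0.0164, 0.000726 and 0.00843). Tnni3, the adult cardiac troponin I, had at most 1 count in a shallow library.

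The satellite cell and myoblast markers were present in every shallow library, with a sum of 4943 to 5823 CPM in scKO and 4453 to 5928 CPM in control libraries. Pax7 and Myf5 were a small part of that sum, with medians of 27.7 and 27.0 CPM over the 13 libraries. The medians of Cdh15, Des, Myod1 and Myog were 1578, 1406, 1251 and 857 CPM. Heart markers were at or near 0, although Tnnt2, Tnnc1 and Myl4 are also cardiac genes: of 7 listed, Myh6, Nppa, Myl7 and Ryr2 had 0 counts in all 13 shallow libraries, and the sum was 0 to 2.54 CPM in scKO and 0 to 4.36 CPM in control libraries. Smooth muscle markers summed to 2179 to 3154 CPM in scKO and 2432 to 3014 CPM in control libraries, of which Acta2 alone gave 2161 to 3129 CPM over both groups. Fibro-adipogenic markers summed to 43.2 to 94.9 CPM in scKO and 63.4 to 136 CPM in control libraries, endothelial markers to 4.13 to 29.2 and 3.27 to 27.0 CPM, and leukocyte markers to 0 to 7.30 and 1.22 to 7.46 CPM, each given for scKO and then control. All of these ranges overlapped between the groups, and their part in the members' levels was not tested.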

How the data were processed

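RNA of cultured satellite cells was sequenced in 18 libraries. The deposited table holds raw UMI counts per gene, with 1 column per library and mouse Ensembl identifiers, of which 50376 of 50689 were paired with a symbol. Per the submitters' processing notes, HISAT2, HTSeq and the rat build Rnor_6.0 were used by the authors; versions, UMI length, annotation release and strand are not given in the sources used here. Replicates share titles apart from their number, and no pair of libraries agreed within sampling noise. Gene models came from GENCODE M21 (GRCm38) and promoter windows from RefSeq (GRCm38.p6).

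Genes were filtered with filterByExpr and scaled by TMM, and tested between groups by quasi-likelihood in edgeR 4.0.16 (R 4.3.3), with Benjamini-Hochberg adjustment over all tested genes and a threshold of 0.05. CPM in the text use deposited totals. Correlations use log2 CPM on TMM totals with a prior count of 2. Balances add 0.5 to each count and were tested by exact two-sided permutation of libraries (scipy 1.17.1). DESeq2 1.42.0, limma 3.58.1 (voom), median-of-ratios size factors, other filters, corrected counts, a replicate block and left-out libraries were tried as alternatives. The tests were checked on simulated data.

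Libraries were grouped by label and genotype. All 10 members are named, with Hoxa10, the called or 3 most abundant genes of each list, and the 5 genes most alike with at least 50 CPM; Ube2c was added after its values were seen. The members, the lists and the split by depth were chosen with earlier results of these data known. The deep libraries without each library, the test of the difference between depth classes, and corrected counts in the deep libraries or without the 4 libraries that stood apart were added after seeing the data. SDs and p-values cover the spread between libraries.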

Additional observations from a re-analysis of the deposited data

How the results depend on the processing

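No member was called in the 13 shallow libraries under any alternative run. The adjusted p ran from 0.250 to 0.9999 over all members and alternatives (edgeR, DESeq2 and limma-voom). Most signs were not stable. Values below are log2 fold changes of scKO over control, or log2 differences for balances.

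Without the 4 libraries that stood apart, the shallow fit turned Tnnt1 to -0.029, Tnnt2 to 0.26, Tnni1 to 0.17, Tnnc1 to 0.25, Tnnc2 to 0.11, Myl1 to 0.35 and Mylpf to 0.18. The fit of 18 turned Tnnt2 to 0.11, Tnni1 to 0.12, Tnni2 to 0.087, Tnnc1 to 0.13, Tnnc2 to 0.17, Myl1 to 0.18 and Mylpf to 0.069. The balances Tnnt3 over Tnnt1, Tnnt2 over Tnnt3 and Myl4 over Myl1 turned to 0.23, 0.036 and -0.10. Corrected counts turned Tnnt2 to 0.48 and Tnnc1 to 0.024 in the shallow fit, and Tnnt2 to 0.38, Tnnc1 to 0.19, Tnnc2 to 0.12, Myl1 to 0.14 and Mylpf to 0.0035 in the fit of 18. They turned the balances Tnnt3 over Tnnt1 and Tnnt2 over Tnnt3 to 0.057 and 0.35. Corrected counts without the 4 libraries gave shallow values of -0.041 for Tnnt1, 0.37 for Tnnt2, 0.14 for Tnni1, 0.24 for Tnnc1, 0.12 for Tnnc2, 0.47 for Myl1 and 0.16 for Mylpf. In the fit of 18 they gave 0.27 for Tnnt2, 0.28 for Tnni1, 0.14 for Tnni2, 0.38 for Tnnc1, 0.37 for Tnnc2, 0.55 for Myl1 and 0.31 for Mylpf, with 2 members called. The deep libraries alone, against the fit of 18, turned Tnnt3 to -0.13, Tnni1 to 0.0044, Tnni2 to 0.65 and Tnnc2 to 0.25, with 1 member called. Corrected, they turned Tnnt2 to 0.10, Tnni1 to 0.53, Tnni2 to 0.86, Tnnc1 to 0.64, Tnnc2 to 0.86, Myl1 to 0.70 and Mylpf to 0.60, with 9 called. The group alone in 18 libraries turned Tnnt1 to -0.014 and Tnnt3 to -0.13. With limma-voom Tnnc1 turned to 0.024 (shallow) and 0.0067 (18), and Tnnc2 to 0.016 (18). With no count filter Tnnc1 turned to 0.026 (shallow). The cause of these changes was not tested.

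Replicate numbers were not taken as pairs, since 1 of 4 shared numbers showed no positive correlation; whether they pair some libraries is not settled by these values. For the 4 numbers shared among shallow libraries, deviations correlated at 0.20, 0.21, 0.29 and -0.10, and 4 of 8 libraries correlated best with their own number. With the replicate block 0 members were called in either fit. The block turned Tnnt2 to 0.11, Tnnc1 to 0.072, Tnnc2 to 0.11 and Myl1 to 0.11 in the shallow fit and Tnnc1 to 0.0044 in the fit of 18. The paired differences of Tnnt3 over Tnnt1 and Tnnc2 over Tnnc1 were 0.091 and 0.042.

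With 1 library left out at a time, members called stayed at 0 in both fits. They were 1 to 6 in the deep libraries and 5 to 9 there after correction. The 6 and the 5 came without control 2 and the 9 without control 1, each leaving 1 control library. The 6 were not all higher in scKO. In that fit 2 of 10 members had positive log2 fold changes, with a median of -0.29. Without scKO 6, 7 or 9, 1 member was called in the deep libraries each time, higher in scKO. Over all genes 837 of 12982, 522 of 12848 and 758 of 12974 were called higher there, in that order. The shallow log2 fold changes ranged from -0.11 to 0.067 for Tnnt2, -0.018 to 0.11 for Tnnt3, -0.085 to 0.051 for Tnnc1 and -0.23 to 0.0097 for Myl1. In the fit of 18 they ranged from -0.12 to 0.0054 for Tnnt2, -0.048 to 0.082 for Tnnt3, -0.088 to 0.029 for Tnnc1 and -0.091 to 0.060 for Tnnc2. The difference of Tnnt3 over Tnnt1 ranged from -0.12 to 0.035.

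The 52 genes called over all 18 libraries became 390 with DESeq2, 359 with no count filter, 100 with limma-voom, 14 with the replicate block, 617 without the 4 libraries and 1 with the group alone. Leaving out 1 library gave 11 to 216. The 3 genes called in the shallow libraries became 13 with no filter, 6 with DESeq2 and 0 without the 4, where 606 had an unadjusted p under 0.05. In the deep libraries 1884 genes were called, 1284 with DESeq2. Depth limits Tnnt2 most: its counts reach the ceiling even in shallow libraries.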
